A study of Homo sapiens with 8 samples.

Results

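The genes described here are the keratins, the proteins of the intermediate filaments of epithelial cells. They were taken as every annotated gene with a symbol of KRT, a number and at most 1 further letter, which leaves out the keratin-associated proteins. This gave 48 keratins of 14884 named genes, 47 of them protein-coding and 1, KRT42P, a transcribed pseudogene. RefSeq lists 55 protein-coding keratins under the same rule. KRT6A, KRT6B, KRT17, KRT34, KRT81, KRT82, KRT86 and KRT222 had no named probe set and were not analysed here. Where a gene had several probe sets, the one with the highest mean over the 8 arrays stood for it, which among keratins concerned KRT18.

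Total RNA came from SCC13, a line derived from a squamous cell carcinoma of human skin, a tumour of keratinocytes. Every group carried a short hairpin RNA and had 2 arrays, with hairpins to EZH2 (shEZH2), RING1B (shRING1B, gene RNF2), BMI1 (shBMI1), and, as the control, GFP (shGFP), a jellyfish protein. EZH2 methylates histone H3 in Polycomb repressive complex 2, while RING1B and BMI1 are subunits of complex 1, a ubiquitin ligase for histone H2A. Although SCC13 is the stated line throughout, titles of the shEZH2 arrays start with SCCL3 and all others with SCC13, and whatever lies behind that prefix cannot be told apart from the effect of this hairpin. Whether the arrays of a hairpin were separate cultures is not stated, so the error behind each p-value may be technical only.

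Keratins fall into acidic type I and basic type II proteins, and a filament is built from pairs of 1 of each type. Basal keratinocytes pair KRT5 with KRT14 and exchange them for KRT1 with KRT10 as they leave the basal layer. Wounded, psoriatic and tumour epidermis switches on KRT6, KRT16 and KRT17, simple epithelia pair KRT8 with KRT18, and the hair follicle uses keratins of its own. The measured members were 27 type I and 21 type II genes. On the GRCh38.p14 assembly 26 of them lie on chromosome 17 and 22, among them the type I gene KRT18, on chromosome 12.

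Values were log2 expression per probe set, on which 1 unit is a 2-fold change in signal, and levels of different probe sets were not compared. Hairpins were compared with limma over all 14884 genes, and a gene was called at a Benjamini-Hochberg adjusted p under 0.05. The error beside a log2 fold change is its standard error. A gene counted as dim where its mean over all arrays was below 5.61, which held for 30% of all genes and for 28 of the 48 keratins. EZH2 itself read 8.95 and 9.03 with shEZH2 and 9.83 and 9.97 with shGFP, a log2 fold change of -0.91 ± 0.12 (limma adjusted p = 0.0183), a call lost on leaving out any 1 of the 4 arrays compared (adjusted p = 0.0864 to 0.179). Neither RNF2 nor BMI1 had a named probe set, so those knockdowns were not checked. Of 11 listed keratinocyte markers that are no keratins, the 3 measured (DSG3, SFN and S100A2) were not dim. Their mean per array was 9.54 to 9.60 with shEZH2, 9.15 to 9.20 with shRING1B, 9.25 to 9.25 with shBMI1 and 9.35 to 9.41 with shGFP. The ranges of this mean did not overlap, but the 3 markers did not move together. Against shGFP, DSG3 was at 0.43, -0.58 and -0.48 with shEZH2, shRING1B and shBMI1. In the same order SFN was at -0.12, -0.08 and -0.06, and S100A2 at 0.26, 0.05 and 0.14. DSG3, a desmosomal cadherin, was called higher with shEZH2 than with shRING1B (1.01 ± 0.13, limma adjusted p = 0.0187) and than with shBMI1 (0.91 ± 0.13, adjusted p = 0.022). In these comparisons 0.578% and 0.974% of all genes were called. Against shGFP, 1 of 2 measured fibroblast markers was called, DCN at 0.93 ± 0.10 (limma adjusted p = 0.0109). So was 1 of 5 melanocyte markers, MLANA at 0.64 ± 0.11 (adjusted p = 0.046). Both were higher with shEZH2, where 0.732% of all genes were called. The calls of DSG3, DCN and MLANA were not followed singly with arrays left out. The fibroblast markers averaged 6.39 to 6.60 per array with shEZH2, 5.86 to 5.93 with shRING1B, 5.86 to 6.04 with shBMI1 and 5.44 to 5.72 with shGFP. The melanocyte markers averaged 5.61 to 5.67 with shEZH2, 5.46 to 5.61 with shRING1B, 5.43 to 5.54 with shBMI1 and 5.48 to 5.52 with shGFP. MLANA was dim, and PMEL, TYR, SOX10 and MITF were at -0.15, -0.01, 0.20 and 0.002 with shEZH2. None of 3 endothelial and 3 leukocyte markers was called against shGFP, where 0.732% of all genes were with shEZH2, 0% with shRING1B and 0% with shBMI1. The part of these markers in the keratin values was not tested.

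No keratin passed the adjusted threshold in any of the 6 comparisons by limma. Closest were KRT10 and KRT14, both lower with shEZH2. Over all genes, 0.732% were called with shEZH2, 0% with shRING1B and 0% with shBMI1 against shGFP. At an unadjusted p under 0.05 there were 7 keratins with shEZH2, 7 with shRING1B and 5 with shBMI1, which is 14.6%, 14.6% and 10.4% of the 48, where 16.2%, 8.6% and 5.58% of all genes had such a p. With shEZH2, 4 of these keratins were higher and 3 lower, where 7.53% and 8.65% of all genes were. With shRING1B, 1 was higher and 6 lower (all genes 4.8% and 3.8%), and with shBMI1 2 and 3 (all genes 2.89% and 2.69%). The median log2 fold change of the keratins was 0.06 with shEZH2, -0.01 with shRING1B and -0.03 with shBMI1, beside -0.01, -0.003 and -0.01 over all genes. In bulk RNA, fewer cells that make a keratin and less of its RNA per cell cannot be told apart.

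**Figure D1:**
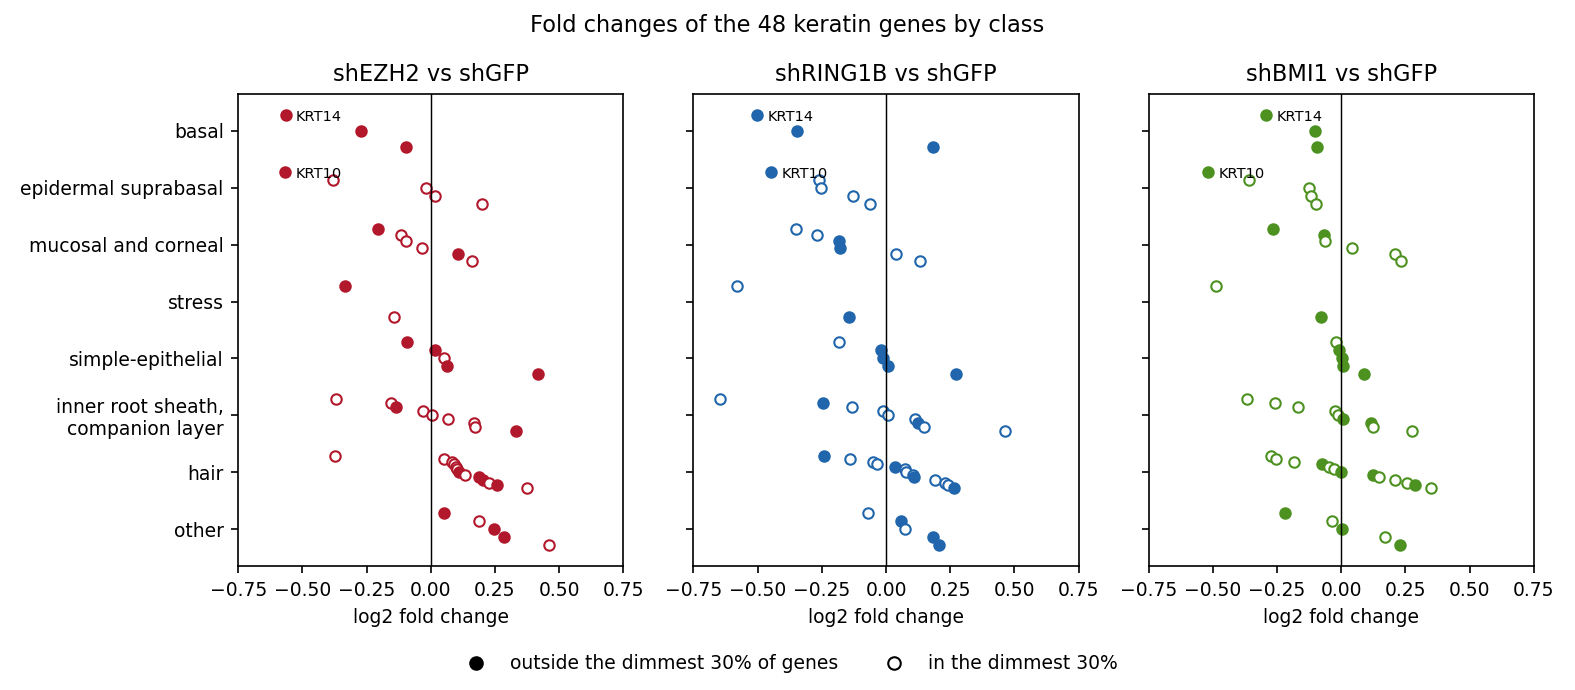
Log2 fold change against shGFP (x axis) of each of the 48 keratins, in rows by class, with a panel for each of shEZH2, shRING1B and shBMI1. Filled points are genes outside the dimmest 30% of all genes and open points those within it. KRT14 and KRT10, labelled, lie left of zero in each panel, KRT14 at -0.57, -0.50 and -0.29 and KRT10 at -0.57, -0.45 and -0.52.

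The basal class holds KRT5, KRT14 and KRT15, none of them dim. KRT14 (chromosome 17, 41582279 to 41586895), the type I basal keratin, read 9.08 and 9.13 with shEZH2, 9.04 and 9.29 with shRING1B, 9.22 and 9.53 with shBMI1, and 9.61 and 9.72 with shGFP. Every knockdown array lay below both shGFP arrays, and the 3 comparisons share those 2 arrays. The log2 fold change was -0.57 ± 0.13 with shEZH2, a 1.48-fold lower level (limma adjusted p = 0.0999, 95% interval -0.87 to -0.26). It was -0.50 ± 0.13 with shRING1B (adjusted p = 0.347) and -0.29 ± 0.13 with shBMI1 (adjusted p = 0.893). With shEZH2 the adjusted p became 0.0433 without the dim genes and 0.0109 with a variance that follows the signal level, and over all alternatives it ranged from 0.0109 to 0.346.

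KRT5 (chromosome 12, 52514575 to 52520394), the type II partner of KRT14, read 10.37 and 10.17 with shEZH2, 10.10 and 10.30 with shRING1B, 10.34 and 10.56 with shBMI1, and 10.49 and 10.60 with shGFP. The arrays of shEZH2 and shRING1B lay below both shGFP arrays, while shBMI1 overlapped them. Its log2 fold change was -0.27 ± 0.12 with shEZH2, -0.34 ± 0.12 with shRING1B and -0.10 ± 0.12 with shBMI1 (limma adjusted p = 0.324, 0.479 and 0.999). KRT15, a type I keratin of basal cells and of the hair follicle bulge, read 5.76 and 5.57 with shEZH2, 5.86 and 6.03 with shRING1B, 5.51 and 5.81 with shBMI1, and 5.70 and 5.82 with shGFP. The shRING1B arrays lay above both controls at 0.18 ± 0.13 (adjusted p = 0.772), and the other knockdowns overlapped them, at -0.09 ± 0.13 with shEZH2 and -0.10 ± 0.13 with shBMI1.

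**Figure D2:**
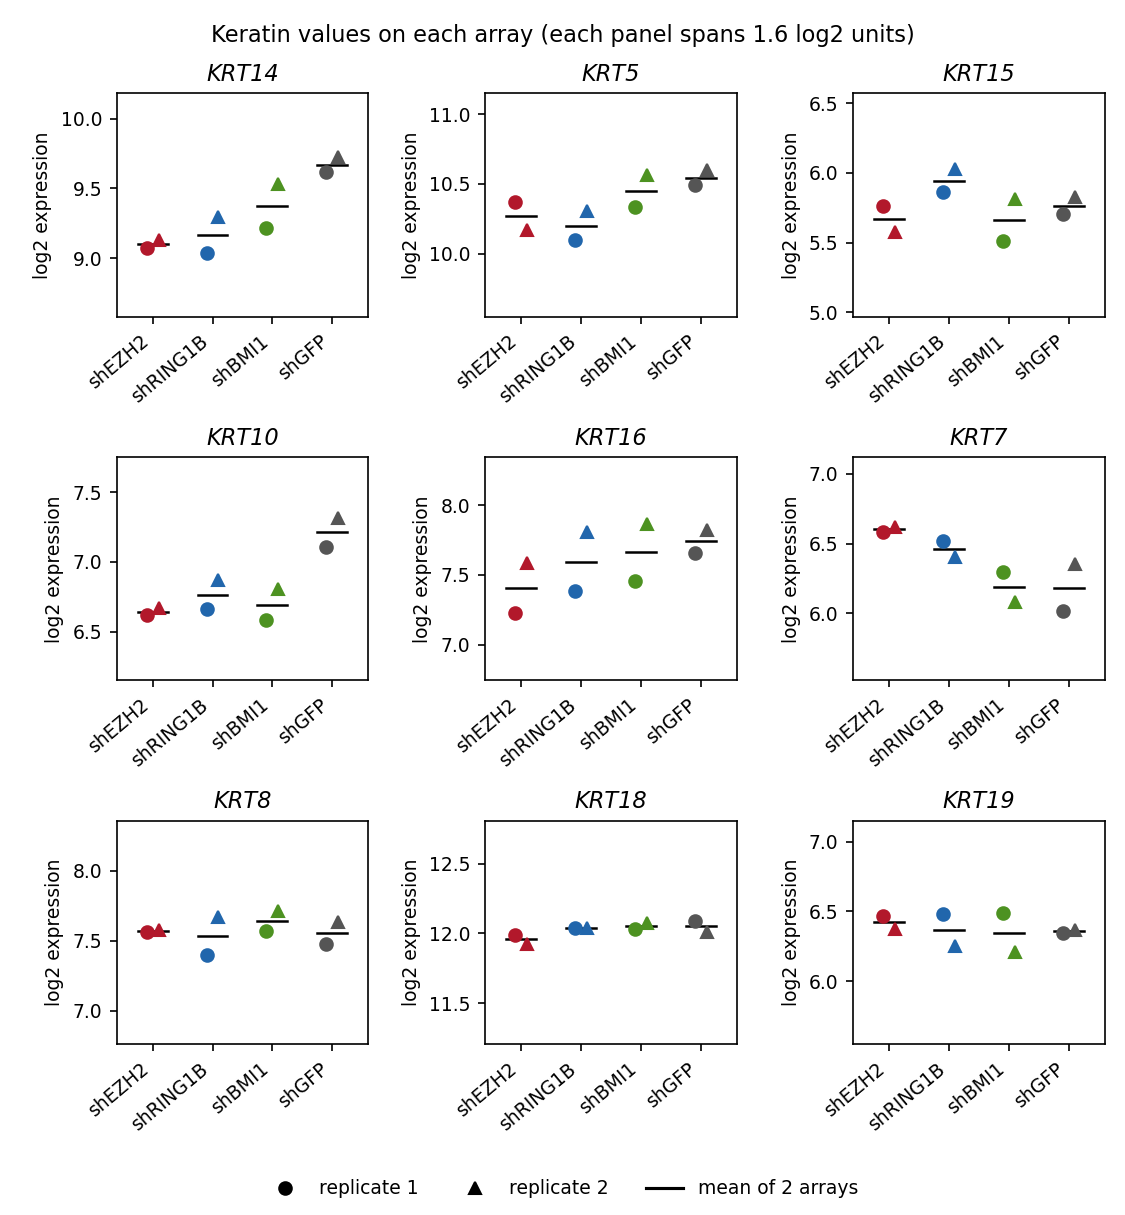
Log2 expression on each array (y axis) of 9 keratins of the basal, suprabasal, stress and simple-epithelial classes, by hairpin (x axis). Circles are replicate 1, triangles replicate 2 and lines the mean of 2 arrays, and every panel spans the same number of log2 units. For KRT10 the knockdown arrays lie between 6.58 and 6.87 and the shGFP arrays at 7.11 and 7.32.

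The epidermal suprabasal class had 5 measured genes, and KRT10 was the only one that was not dim. KRT10 (chromosome 17, 40818117 to 40822614), the type I keratin of differentiating epidermis, read 6.62 and 6.67 with shEZH2, 6.66 and 6.87 with shRING1B, 6.58 and 6.80 with shBMI1, and 7.11 and 7.32 with shGFP. Every knockdown array lay below both shGFP arrays. The log2 fold change was -0.57 ± 0.12 with shEZH2, a 1.48-fold lower level (limma adjusted p = 0.0892, 95% interval -0.85 to -0.29). It was -0.45 ± 0.12 with shRING1B (1.36-fold lower, adjusted p = 0.366) and -0.52 ± 0.12 with shBMI1 (1.43-fold lower, adjusted p = 0.617). With shEZH2 the adjusted p became 0.037 without the dim genes and 0.0236 with a variance that follows the signal level, and over all alternatives it ranged from 0.0236 to 0.326. Without shGFP replicate 1 the fold change was -0.67, and without shGFP replicate 2 it was -0.46.

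The other 4 suprabasal genes were dim on these arrays. KRT1, the type II partner of KRT10, read 4.37 and 4.59 with shEZH2, 4.24 and 4.64 with shRING1B, 4.64 and 4.12 with shBMI1, and 4.57 and 4.43 with shGFP. Its arrays overlapped the controls in all 3 comparisons, at -0.02 ± 0.19 with shEZH2, -0.06 ± 0.19 with shRING1B and -0.12 ± 0.19 with shBMI1. KRT77, a type II keratin placed in this class by the list used, read 4.83 and 4.95 with shEZH2, 4.80 and 5.23 with shRING1B, 4.59 and 5.23 with shBMI1, and 5.23 and 5.30 with shGFP. The knockdown arrays were all below both controls, though barely so on 1 array each of shRING1B and shBMI1, with log2 fold changes of -0.38, -0.25 and -0.36 (limma adjusted p = 0.415, 0.817 and 0.939). KRT2, a keratin of the upper epidermis, read 5.11 and 5.33 with shEZH2, 5.07 and 4.71 with shRING1B, 4.91 and 4.90 with shBMI1, and 4.99 and 5.05 with shGFP. KRT9, the keratin of palm and sole, read 5.59 and 5.34 with shEZH2, 5.19 and 5.19 with shRING1B, 5.30 and 5.39 with shBMI1, and 5.36 and 5.54 with shGFP. For KRT2 and KRT9 the log2 fold changes against shGFP lay between -0.26 and 0.20, none past the threshold.

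Log2 fold changes against shGFP are given here for the neighbours of KRT10 and KRT14 on chromosome 17. KRT28 and KRT12, the nearest measured keratins on either side of KRT10, were both dim and were at 0.07 ± 0.14 and -0.12 ± 0.16 with shEZH2. KRT9 and KRT16, which flank KRT14, were at 0.02 ± 0.11 and -0.33 ± 0.19 with shEZH2. With shRING1B, KRT28, KRT12, KRT9 and KRT16 were at 0.11, -0.27, -0.26 and -0.15. In the same order they were at -0.17, 0.04, -0.10 and -0.08 with shBMI1. Whether neighbours changed together was not tested.

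Upstream sequences are shown for KRT10, which lay below the controls on every knockdown array, for the basal keratin KRT5, which did so with shEZH2 and shRING1B, and for KRT8, a simple-epithelial keratin that overlapped the controls with every hairpin. They are the 250 bases before a RefSeq start site of each gene on GRCh38.p14, minus strand, 5′ to 3′, at chr17:40822615-40822864 for KRT10, chr12:52520395-52520644 for KRT5 and chr12:52926470-52926719 for KRT8. The KRT10 and KRT5 windows adjoin the annotated gene, while the KRT8 window lies inside the annotated span of KRT8, before 1 of its starts. Capitals mark the TATA motif TATAAA.
KRT10: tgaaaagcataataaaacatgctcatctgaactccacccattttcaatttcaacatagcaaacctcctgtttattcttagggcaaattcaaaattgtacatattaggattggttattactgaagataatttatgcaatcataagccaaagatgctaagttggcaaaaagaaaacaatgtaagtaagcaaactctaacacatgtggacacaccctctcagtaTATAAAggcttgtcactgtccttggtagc
KRT5: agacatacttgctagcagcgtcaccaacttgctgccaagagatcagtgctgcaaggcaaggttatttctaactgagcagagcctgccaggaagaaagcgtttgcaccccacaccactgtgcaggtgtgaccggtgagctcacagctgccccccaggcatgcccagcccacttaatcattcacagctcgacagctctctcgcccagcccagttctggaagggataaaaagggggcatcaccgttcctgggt
KRT8: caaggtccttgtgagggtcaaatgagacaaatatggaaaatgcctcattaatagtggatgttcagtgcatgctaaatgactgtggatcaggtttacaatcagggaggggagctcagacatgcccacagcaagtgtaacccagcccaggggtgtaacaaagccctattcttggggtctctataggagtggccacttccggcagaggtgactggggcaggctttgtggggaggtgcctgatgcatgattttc
KRT10 had TATAAA on the strand of the gene with its first base at position -29 from the start, and these letters did not occur on either strand of the KRT5 and KRT8 windows. The RefSeq table matched 32 of the 48 keratins, with 36 windows in all since KRT40 and KRT85 had several. Among the keratins without a window were KRT14, KRT15, KRT1, KRT16, KRT6C, KRT7, KRT18 and KRT19. Most of the windows belonged to hair, inner root sheath and companion layer keratins. TATAAA was on either strand of 19 of the 36 windows, or 52.8%, against 10.7% of all 35116 windows of that length. The AP-1 motif TGANTCA was in 0 of the 36 and 6.57% of all windows, and the AP-2 motif GCCNNNGGC in 5 of the 36, or 13.9%, and 19.8% of all. The median keratin window held 2 CG dinucleotides, with a range of 0 to 7, against a median of 11 over all windows. KRT10 had 0, KRT5 had 6 and KRT8 had 1. These counts describe the letters of the windows only.

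The stress class had 2 measured genes, and both have close copies in the genome, so their probe sets may take up signal from KRT6A, KRT6B, KRT17 or pseudogenes. KRT16, the type I keratin of wounded and hyperproliferative epidermis, read 7.22 and 7.59 with shEZH2, 7.38 and 7.81 with shRING1B, 7.46 and 7.86 with shBMI1, and 7.66 and 7.82 with shGFP. The shEZH2 arrays lay below both controls and the other knockdowns overlapped them, with log2 fold changes of -0.33 ± 0.19 with shEZH2, -0.15 ± 0.19 with shRING1B and -0.08 ± 0.19 with shBMI1 (limma adjusted p = 0.436, 0.894 and 0.999). KRT6C, a type II partner of KRT16 and dim here, read 4.32 and 4.97 with shEZH2, 4.26 and 4.16 with shRING1B, 4.15 and 4.45 with shBMI1, and 4.76 and 4.82 with shGFP. The shRING1B and shBMI1 arrays lay below both controls, at -0.58 ± 0.20 and -0.49 ± 0.20 (adjusted p = 0.442 and 0.884). The shEZH2 arrays lay on both sides of the controls, at -0.14 ± 0.20 (adjusted p = 0.763).

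**Figure D3:**
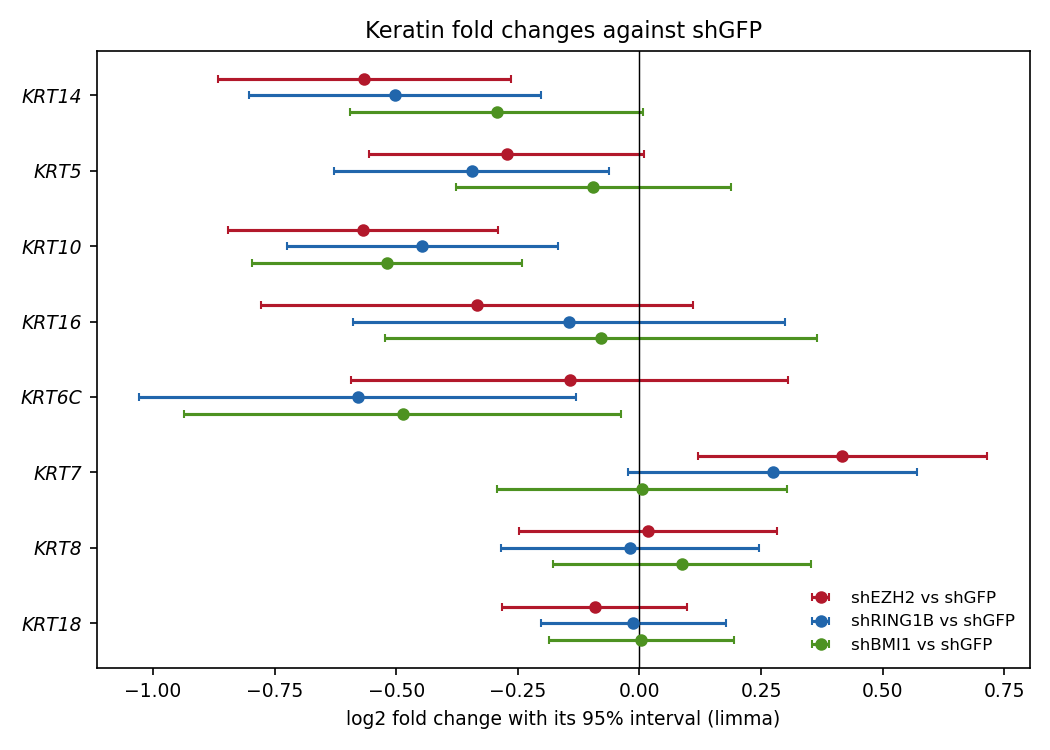
Log2 fold change against shGFP (x axis) of 8 keratins in rows, with its 95% interval from limma, for shEZH2, shRING1B and shBMI1 from top to bottom in each row. The interval of KRT10 with shEZH2 runs from -0.85 to -0.29 before adjustment for the number of genes, while those of the probe set used for KRT18 stay between -0.28 and 0.19.

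The simple-epithelial class included KRT8 and a probe set named KRT18, with log2 fold changes near zero, and KRT7, with its highest value under shEZH2. The probe set used for KRT18, a gene at chromosome 12, 52948855 to 52952906, read 11.99 and 11.92 with shEZH2, 12.04 and 12.04 with shRING1B, 12.04 and 12.07 with shBMI1, and 12.09 and 12.01 with shGFP. The 95% interval of its log2 fold change was -0.28 to 0.10 with shEZH2, -0.20 to 0.18 with shRING1B and -0.19 to 0.19 with shBMI1. KRT18 has many pseudogene copies, and this probe set was the brighter of 2 under that symbol. Whether it lies on KRT18 or on a copy could not be checked without probe positions, so its values may not measure KRT18. Probe set numbers run by chromosome for most genes named here. The number of this probe set lies between those of SOX10 on chromosome 22 and MITF on chromosome 3. That of the second lies close to the number of KRT7 on chromosome 12, the chromosome of KRT18. The second probe set read 8.87 and 8.67 with shEZH2, 8.90 and 8.76 with shRING1B, 8.85 and 9.14 with shBMI1, and 8.88 and 8.98 with shGFP. It was not used in the fit and gave log2 fold changes of -0.16, -0.10 and 0.06. KRT8 (chromosome 12, 52897191 to 52949860), the type II partner of KRT18 with an annotated span that overlaps it, read 7.56 and 7.58 with shEZH2, 7.40 and 7.67 with shRING1B, 7.57 and 7.72 with shBMI1, and 7.48 and 7.63 with shGFP. The intervals were -0.25 to 0.28, -0.28 to 0.25 and -0.18 to 0.35, and the arrays overlapped the controls with every hairpin.

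KRT7 (chromosome 12, 52233243 to 52255853), a type II keratin of glandular and simple epithelia, read 6.59 and 6.62 with shEZH2, 6.52 and 6.40 with shRING1B, 6.30 and 6.08 with shBMI1, and 6.02 and 6.35 with shGFP. The arrays of shEZH2 and shRING1B lay above both controls, which differed widely between themselves. The log2 fold change was 0.42 ± 0.13 with shEZH2, a 1.34-fold higher level (limma adjusted p = 0.181), 0.27 ± 0.13 with shRING1B (adjusted p = 0.621) and 0.01 ± 0.13 with shBMI1 (adjusted p = 0.999). KRT19, a type I keratin of simple epithelia and the hair follicle, read 6.47 and 6.37 with shEZH2, 6.48 and 6.25 with shRING1B, 6.49 and 6.21 with shBMI1, and 6.35 and 6.37 with shGFP. Its log2 fold changes were 0.06 ± 0.12, 0.01 ± 0.12 and -0.01 ± 0.12. KRT20, a keratin of intestine and urothelium and dim here, read 5.05 and 5.22 with shEZH2, 5.05 and 4.75 with shRING1B, 5.26 and 4.86 with shBMI1, and 5.04 and 5.12 with shGFP. It was at 0.05 ± 0.15 with shEZH2, -0.18 ± 0.15 with shRING1B and -0.02 ± 0.15 with shBMI1.

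Of 6 mucosal and corneal keratins 4 were dim, among them KRT4 and KRT13, the pair of the oral and oesophageal lining. The 6 lay between -0.21 and 0.16 with shEZH2, between -0.35 and 0.13 with shRING1B and between -0.27 and 0.23 with shBMI1. KRT78, a type II keratin, read 5.62 and 5.62 with shEZH2, 5.68 and 5.62 with shRING1B, 5.62 and 5.50 with shBMI1, and 5.92 and 5.73 with shGFP. All knockdown arrays of KRT78 were below both controls, with log2 fold changes of -0.21 ± 0.10, -0.18 ± 0.10 and -0.27 ± 0.10 (limma adjusted p = 0.35, 0.678 and 0.834). KRT3, a corneal keratin, read 6.22 and 5.98 with shEZH2, 5.81 and 5.82 with shRING1B, 5.90 and 5.96 with shBMI1, and 6.07 and 5.92 with shGFP. Its value farthest from zero was -0.18 ± 0.11 with shRING1B (adjusted p = 0.694).

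Of 9 keratins of the inner root sheath and companion layer of the hair follicle, 7 were dim. KRT73 read 4.81 and 4.93 with shEZH2, 4.53 and 4.24 with shRING1B, 4.76 and 4.78 with shBMI1, and 4.73 and 5.32 with shGFP. The shRING1B arrays lay below both controls at -0.65 ± 0.18 (limma adjusted p = 0.384), the lowest of the 48 keratins in that comparison, while the controls differed from each other by 0.59. KRT26 read 4.24 and 4.41 with shEZH2, 4.77 and 4.48 with shRING1B, 4.23 and 4.34 with shBMI1, and 4.02 and 4.29 with shGFP. Here the shRING1B arrays lay above both controls, at 0.46 ± 0.14 (adjusted p = 0.394). KRT74, chosen after its values were seen, was at 0.33 ± 0.10 with shEZH2 (adjusted p = 0.181).

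Of 13 measured hair keratins, which build the hair shaft, 9 were dim. Positive log2 fold changes numbered 12 with shEZH2, 9 with shRING1B and 6 with shBMI1, and the class medians were 0.11, 0.08 and -0.0008. Of all 14884 genes, 7157, 7320 and 6929 were positive. These comparisons share the shGFP arrays, and the signs were not tested. Arrays lay wholly above both controls for 4, 3 and 3 of the 13, where 23.1%, 18.2% and 14% of all genes did. KRT84 read 5.23 and 5.39 with shEZH2, 5.23 and 5.10 with shRING1B, 5.17 and 5.40 with shBMI1, and 4.86 and 5.01 with shGFP. All knockdown arrays of KRT84 lay above both controls, at 0.38 ± 0.12, 0.23 ± 0.12 and 0.35 ± 0.12 (limma adjusted p = 0.18, 0.636 and 0.784). KRT35 read 4.96 and 5.14 with shEZH2, 5.30 and 5.26 with shRING1B, 5.14 and 5.15 with shBMI1, and 5.58 and 5.26 with shGFP. It was the only hair keratin with a negative value with shEZH2, at -0.37 ± 0.12 (adjusted p = 0.192). KRT36, chosen after its values were seen, was at 0.29 ± 0.10 with shBMI1 (adjusted p = 0.804). KRT33A and KRT33B are close copies and may share signal.

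The 5 remaining keratins are KRT23, KRT24, KRT79, KRT80 and the pseudogene KRT42P. They lay between 0.05 and 0.46 with shEZH2, between -0.07 and 0.21 with shRING1B and between -0.22 and 0.23 with shBMI1. KRT79, a keratin of the sebaceous gland duct and dim here, read 5.73 and 5.46 with shEZH2, 4.86 and 5.27 with shRING1B, 5.20 and 5.42 with shBMI1, and 4.99 and 5.29 with shGFP. The shEZH2 arrays lay above both controls at 0.46 ± 0.17 (limma adjusted p = 0.253), the highest of the 48 keratins in that comparison. KRT42P read 6.60 and 6.26 with shEZH2, 6.16 and 6.25 with shRING1B, 6.45 and 6.29 with shBMI1, and 6.27 and 6.01 with shGFP. With shEZH2 it was at 0.29 ± 0.14 (adjusted p = 0.354), with overlapping arrays.

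By class, the medians against shGFP were -0.27, -0.34 and -0.10 for basal keratins with shEZH2, shRING1B and shBMI1 in that order. In the same order they were -0.02, -0.25 and -0.12 for epidermal suprabasal, -0.24, -0.36 and -0.28 for stress, and 0.05, -0.01 and 0.004 for simple-epithelial keratins. The suprabasal medians were values of the dim genes KRT1 and KRT77. The simple-epithelial medians with shRING1B and shBMI1 were those of the probe set used for KRT18, which may not measure that gene. The classes hold 2 to 13 genes and were not tested as sets. Type I genes had medians of 0.05, 0.06 and -0.01, and type II genes 0.08, -0.06 and -0.08. Keratins wholly below both controls numbered 10, 11 and 8 of 48, where 27%, 19.1% and 17.8% of all genes were. Keratins wholly above numbered 11, 7 and 4 of 48, where 23.1%, 18.2% and 14% of all genes were. The SD between arrays of a hairpin had a median of 0.19 over the keratins, against 0.11 over all genes, and was 0.14 for the 20 keratins that were not dim and 0.21 for the 28 that were.

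Between knockdowns no keratin was called either, while 0.578% of all genes were called for shEZH2 against shRING1B, 0.974% for shEZH2 against shBMI1 and 0.0134% for shRING1B against shBMI1. At an unadjusted p under 0.05 by limma there were 5, 4 and 2 keratins, where 15.6%, 15.1% and 9.18% of all genes had such a p. All of these keratins were higher in the hairpin named first, which is 10.4%, 8.33% and 4.17% of the 48. Of all genes, 7.35%, 7.75% and 5.21% had such a p and were higher. Among all genes with such a p, 1094 of 2317, 1153 of 2243 and 775 of 1367 were higher. KRT79 was at 0.53 ± 0.17 for shEZH2 against shRING1B (adjusted p = 0.208) and KRT7 at 0.41 ± 0.13 for shEZH2 against shBMI1 (adjusted p = 0.188). KRT80, a keratin of many epithelia chosen after its values were seen, read 6.73 and 6.85 with shEZH2, 6.69 and 6.77 with shRING1B, 6.17 and 6.47 with shBMI1, and 6.34 and 6.74 with shGFP. Its shBMI1 arrays lay below those of both other knockdowns, at 0.47 ± 0.15 for shEZH2 and 0.40 ± 0.15 for shRING1B against shBMI1 (adjusted p = 0.203 and 0.466).

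Of 4 lists of genes that act with keratins, no member was called against shGFP, where 0.732% of all genes were called with shEZH2, 0% with shRING1B and 0% with shBMI1. Between knockdowns 4 members were called, where 0.578% of all genes were for shEZH2 against shRING1B, 0.974% for shEZH2 against shBMI1 and 0.0134% for shRING1B against shBMI1. Among 12 measured linkers, which tie filaments to cell junctions and to each other, this was EPPK1, the keratin-binding plakin epiplakin. EPPK1 read 7.32 and 7.32 with shEZH2, 6.50 and 6.57 with shRING1B, 6.51 and 6.65 with shBMI1, and 6.90 and 6.99 with shGFP. It was higher with shEZH2 than with shRING1B (0.78 ± 0.09, limma adjusted p = 0.0137) and than with shBMI1 (0.74 ± 0.09, adjusted p = 0.0127). Both calls were lost on leaving out any 1 of the 4 arrays compared (adjusted p = 0.0514 to 0.141). Against shGFP it was at 0.37 with shEZH2, -0.41 with shRING1B and -0.36 with shBMI1. DSP, which encodes desmoplakin, read 11.61 and 11.68 with shEZH2, 11.14 and 11.19 with shRING1B, 11.35 and 11.36 with shBMI1, and 11.45 and 11.60 with shGFP. Its value against shGFP was -0.36 ± 0.09 with shRING1B (adjusted p = 0.346). JUP, which encodes plakoglobin, and PPL, which encodes periplakin, were at 0.29 ± 0.12 and 0.04 ± 0.11 with shEZH2 and at -0.26 ± 0.12 and -0.26 ± 0.11 with shBMI1. Linker medians were 0.02, -0.11 and -0.16, and 6, 12 and 12 of the 12 values were negative. Of all 14884 genes, 7727, 7564 and 7955 were negative. These comparisons share the shGFP arrays, and the signs were not tested.

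Of 18 measured transcription factors of keratinocytes and hair, 3 were called between knockdowns, 1 for shEZH2 against shRING1B (all genes 0.578%) and 2 for shEZH2 against shBMI1 (all genes 0.974%). EHF, an ETS factor of epithelia, read 8.86 and 8.86 with shEZH2, 8.76 and 8.60 with shRING1B, 8.03 and 8.28 with shBMI1, and 8.32 and 8.34 with shGFP. It was higher with shEZH2 than with shBMI1 (0.71 ± 0.11, limma adjusted p = 0.0258) and was at 0.53 ± 0.11 against shGFP (adjusted p = 0.0816). SOX9, a factor of hair follicle stem cells, read 9.62 and 9.54 with shEZH2, 10.40 and 10.22 with shRING1B, 10.15 and 9.95 with shBMI1, and 10.05 and 9.94 with shGFP. It was lower with shEZH2 than with shRING1B (-0.73 ± 0.11, adjusted p = 0.0315). LEF1, a Wnt pathway factor that acts on hair keratin genes, read 6.03 and 6.35 with shEZH2, 6.47 and 6.44 with shRING1B, 6.91 and 6.93 with shBMI1, and 6.48 and 6.45 with shGFP. It was lower with shEZH2 than with shBMI1 (-0.73 ± 0.11, adjusted p = 0.0294). These 3 calls too were lost on leaving out any 1 of the 4 arrays compared (adjusted p = 0.0514 to 0.248). The LEF1 call was lost without any 1 of all 8 arrays (adjusted p = 0.0558 to 0.16) and held under 7 of 16 alternatives, and those of SOX9 and EHF were also lost without either shGFP array (adjusted p = 0.0586 and 0.0516) and held under 9 of 16. MSX2, a homeobox factor of hair differentiation, was at 0.28 ± 0.09, 0.32 ± 0.09 and 0.32 ± 0.09 against shGFP with shEZH2, shRING1B and shBMI1. The list medians were 0.02, 0.03 and -0.10.

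**Figure D4:**
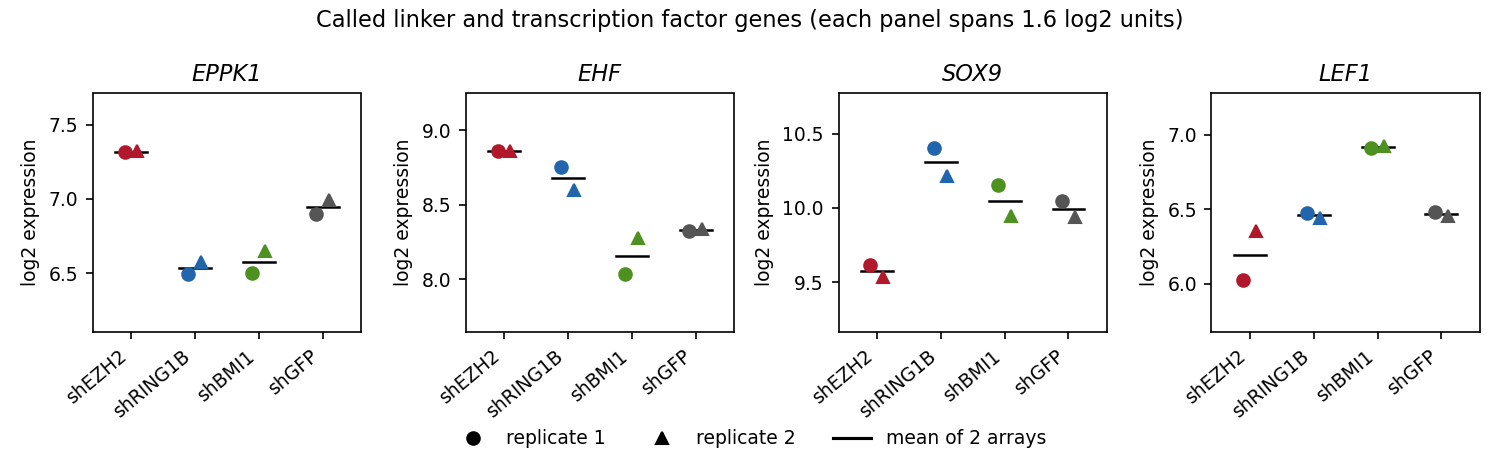
Log2 expression on each array (y axis) of the linker EPPK1 and the transcription factors EHF, SOX9 and LEF1 by hairpin (x axis), with circles for replicate 1, triangles for replicate 2 and lines for the mean of 2 arrays. The shEZH2 arrays of EPPK1 lie at 7.32, above the shGFP arrays at 6.90 and 6.99, and those of shRING1B and shBMI1 lie below.

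Of 10 measured intermediate filament genes other than keratins, none was called in any comparison by limma, and 3, 1 and 2 had an unadjusted p under 0.05 against shGFP with shEZH2, shRING1B and shBMI1, as did 16.2%, 8.6% and 5.58% of all genes. The nuclear lamina genes LMNB1 and LMNB2 were at -0.39 ± 0.11 and -0.35 ± 0.09 with shEZH2 (adjusted p = 0.148 and 0.132), and IFFO2, a member of the filament family, was at -0.33 ± 0.09. VIM, the filament of mesenchymal cells, read 9.17 and 8.91 with shEZH2, 9.40 and 9.25 with shRING1B, 9.80 and 9.49 with shBMI1, and 9.26 and 9.02 with shGFP. It was at 0.51 ± 0.15 with shBMI1 (adjusted p = 0.698). Of 7 measured partners of filament proteins in the outer epidermis and hair, none was called either, and 0, 1 and 0 had such a p, beside the same shares of all genes. HRNR, which encodes hornerin, was at -0.36 ± 0.10 with shRING1B (adjusted p = 0.387). The list medians were -0.18, -0.01 and 0.01 for the filament genes and -0.01, -0.08 and 0.06 for the partners.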

How the data were processed

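Biotin-labelled RNA was hybridised to whole-transcript arrays, per the labels' protocols. The authors deposited log2 expression for each probe set, computed with RMA, and limma is named too, per the submitters' processing notes. No version or probe set definition is stated in the labels. RMA gives all arrays about the same distribution and understates differences of dim probe sets.

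The table held 53617 probe sets, 16098 of them paired with 1 symbol, 0 with several and 37519 unnamed. Symbols were updated through a RefSeq gene table (GRCh38.p14), which gave 14884 genes. Array medians lay between 5.49 and 5.52. A mean per hairpin was fitted over all 8 arrays with limma 3.58.1 in R 4.3.3 (4 residual degrees of freedom, empirical Bayes without trend), with two-sided p-values adjusted within each of 6 comparisons. An exact permutation test of 2 against 2 arrays cannot go below p = 0.333, and the number of arrays limits the precision.

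The members, classes and lists were chosen with earlier results of these data known. Values on every array are given for basal, suprabasal, stress and simple-epithelial keratins and for the 2 keratins with the smallest p in each other class. From each list of other genes the text names called members and up to 4 with the smallest p. The fit was tested on simulated data, but how often it recovers changes as small as those of the keratins is not given here. Alternatives were a fit of the 4 arrays compared alone, a block for replicate number, median centring, quantile normalization, leaving out the dimmest 30% of genes, averaging probe sets of a gene, a trended robust variance, protein-coding genes alone, and leaving out each array in turn.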

Additional observations from a re-analysis of the deposited data

How the results depend on the processing

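The count of 0 keratins called with shEZH2 against shGFP became 1 under a replicate block (KRT10, adjusted p = 0.0497), 2 without the dimmest 30% of genes and 2 with a trended robust variance (KRT10 and KRT14 in both). It was 0 under the other alternatives, and in the other 5 comparisons it was 0 under every alternative, with each array left out too (0 to 0). Same-numbered arrays of different hairpins deviated from their group means with correlations of 0.001 to 0.248. These exceeded 0.1 for shRING1B with shGFP (0.116) and shBMI1 with shGFP (0.248) and not for the other pairs. As not every pair exceeded 0.1, the numbers were not taken to pair arrays. For KRT10 and KRT14, though, replicate 2 read above replicate 1 with all 4 hairpins, and for KRT13 and KRT72 with 0 of the 4. Over the keratins alone the correlations ran from -0.232 to 0.289. With shEZH2 against shGFP, KRT14 ranged from -0.62 to -0.51 and KRT10 from -0.67 to -0.46 over 16 alternatives. Over all genes, the 109 called for shEZH2 against shGFP became 39 with only the 4 arrays compared, 409 without the dimmest genes, 648 with the trended variance and 169 over protein-coding genes, and 0 without either shEZH2 array, 19 without shGFP replicate 1 and 6 without shGFP replicate 2. Under the same 4 alternatives in that order, the 86 of shEZH2 against shRING1B became 21, 361, 555 and 183, and the 145 of shEZH2 against shBMI1 became 57, 445, 640 and 320. Counts that moved on leaving out an array lay between 0 and 52 for shRING1B and between 2 and 35 for shBMI1. For shRING1B against shGFP, 0 became 2 after quantile normalization, 11 without the dimmest genes, 36 with the trended variance and 9 over protein-coding genes. The 2 genes of shRING1B against shBMI1 became 0 under a replicate block, with only the 4 arrays compared and without any 1 array, 18 without the dimmest genes and 38 with the trended variance. The cause of these changes was not tested.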
